A study of Mus musculus with 9 samples.

Results

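The transcription factor gene Trp53, its inhibitors Mdm2 and Mdm4, and 7 genes known as direct p53 targets (Phlda3, Ccng1, Trp53inp1, Zmat3, Sesn2, Psrc1 and Aen) were followed across all 9 bone marrow libraries of the study. These 10 genes were chosen by name from the 43629 Ensembl identifiers of the deposited table, and each of them matched 1 identifier and passed the filter on low values. The libraries were made from bone marrow cells selected for c-KIT, the receptor of stem and progenitor cells, from pIpC-treated C57BL/6 mice, with 3 libraries in each of 3 groups. KI_Chd7del mice carried Chd7f/f, Mx1-Cre and Cbfb+/56M. KI mice carried Mx1-Cre and Cbfb+/56M with no Chd7 allele named. WT mice were labelled wild type, with no Cre named, so Cre and the Cbfb+/56M allele are measured together in any comparison with WT. After recombination by Cre the 56M allele expresses CBFB-MYH11, a fusion found in human myeloid leukaemia, and Chd7 encodes a chromatin remodeller. The Mx1 promoter that drives Cre responds to interferon, which pIpC raises, and it is active in many tissues, so recombination is not limited to blood progenitors. Whether each library stands for a mouse of its own is not stated in the labels, and p-values then measure the spread between these samples, which may be technical.

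The p53 protein is held at a low level by MDM2, a ubiquitin ligase that marks it for degradation, and by the related MDM4, which blocks its transactivation. After DNA damage or oncogenic stress p53 accumulates and raises transcription of genes for cell cycle arrest, apoptosis, repair and metabolism, Mdm2 among them, which closes a negative feedback loop. In blood stem and progenitor cells p53 is known to restrain the cell cycle and to drive loss of damaged cells.

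Promoter sequence from RefSeq (GRCm38.p6) is given for Phlda3, for those of the 10 genes with a p53 half-site and for Cdkn1a, to show where its letters stand. The windows ran from 250 bases before to 50 bases after each start. Of the 10 genes 8 had a window, and Trp53inp1 and Zmat3 had none. Each window was searched for the p53 half-site decamer, whose letters read the same on both strands. It was found in 4 of the 8 genes, Trp53, Mdm2, Ccng1 and Aen, against 9.55% of the 27025 symbols with a window and 8.36% of 32851 windows. Phlda3, Mdm4, Sesn2 and Psrc1 held no match. Among other listed p53 targets, 9 of the 31 with a window held the half-site. No window of the 10 genes held a pair of half-sites at most 13 bases apart, an arrangement found in 24 windows, among them that of Cdkn1a, the best known p53 target. In the sequences below capitals mark the half-site. Bases in an annotated exon were left out, except for Aen, where the half-site lies in an exon and 10 bases on either side of it are shown.
Phlda3, chr1:135765835-135766084, + strand: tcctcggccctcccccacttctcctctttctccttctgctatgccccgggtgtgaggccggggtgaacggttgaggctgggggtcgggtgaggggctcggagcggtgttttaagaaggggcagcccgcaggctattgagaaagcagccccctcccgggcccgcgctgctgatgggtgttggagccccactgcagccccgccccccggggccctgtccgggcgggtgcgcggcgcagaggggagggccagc
Mdm2, chr10:117710759-117711008, - strand: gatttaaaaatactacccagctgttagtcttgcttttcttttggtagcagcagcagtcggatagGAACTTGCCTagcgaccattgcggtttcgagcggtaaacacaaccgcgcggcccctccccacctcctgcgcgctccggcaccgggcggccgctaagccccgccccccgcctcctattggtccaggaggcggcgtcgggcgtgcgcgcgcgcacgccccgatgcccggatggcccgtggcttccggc
Ccng1, chr11:40755312-40755536, - strand: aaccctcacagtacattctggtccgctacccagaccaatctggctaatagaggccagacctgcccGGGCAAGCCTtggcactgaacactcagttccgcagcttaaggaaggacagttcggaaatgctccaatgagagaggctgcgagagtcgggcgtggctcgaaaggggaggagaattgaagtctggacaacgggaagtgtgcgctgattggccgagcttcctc
Trp53, chr11:69580256-69580358, + strand: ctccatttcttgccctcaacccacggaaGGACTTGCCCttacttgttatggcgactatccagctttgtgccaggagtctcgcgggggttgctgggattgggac
Aen, chr7:78895927-78895956, + strand: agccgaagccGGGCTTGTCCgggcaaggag
Cdkn1a, chr17:29090729-29090975, + strand: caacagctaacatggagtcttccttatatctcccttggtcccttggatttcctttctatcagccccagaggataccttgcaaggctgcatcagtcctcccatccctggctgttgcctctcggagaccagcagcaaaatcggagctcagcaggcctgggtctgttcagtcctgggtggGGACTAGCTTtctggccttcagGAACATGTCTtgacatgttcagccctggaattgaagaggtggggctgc
The Phlda3 window held no match, which says only that these letters do not stand there. A match is a description of the sequence, and binding was not measured.

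The deposited values, called normalised values here, are whole numbers whose low end shows read numbers divided by a factor per library and rounded. Their totals were 37538447 to 38076394 in KI_Chd7del, 37716763 to 39002839 in KI and 43222301 to 46159426 in WT. Chd7 itself had 1862, 1794 and 1921 in KI_Chd7del, 1979, 2934 and 2009 in KI, and 3471, 3745 and 3982 in WT, and such gene-wide values do not show whether a floxed exon was lost. Myh11, the mouse counterpart of the fusion partner, had 164 to 187 in KI_Chd7del, 176 to 219 in KI and 5 to 9 in WT. Kit averaged 7457 ± 1210 in KI_Chd7del, 3538 ± 321 in KI and 7504 ± 253 in WT (SD, n = 3 each), and it was 1 of 3 stem and progenitor markers of 12 that were lower in KI than in WT, whereas 7 were higher. In KI_Chd7del against KI 10 of the 12 were higher, Kit among them, and 1 was lower. The 12 together took 0.0856% to 0.111% of the total in KI_Chd7del, 0.0539% to 0.0613% in KI and 0.0507% to 0.0613% in WT. Late neutrophil markers took 4.28% to 5.63% of the total in KI_Chd7del, 1.12% to 2.94% in KI and 11.7% to 13.9% in WT. Monocyte and macrophage markers took 0.267% to 0.298%, 0.558% to 0.625% and 0.0847% to 0.0901% in KI_Chd7del, KI and WT. Of these 12 markers 10 were higher in KI than in WT and 1, Cx3cr1, was lower. In KI_Chd7del against KI 2 were higher and 9 lower. Mast cell, basophil and eosinophil markers took 0.242% to 0.333%, 0.275% to 0.439% and 0.104% to 0.145% in KI_Chd7del, KI and WT. Of these 12 markers 7 were higher in KI than in WT and 5 lower, namely Prss34, Mcpt8, Prg2, Epx and Hdc, so the summed share does not stand for each cell type. In KI_Chd7del against KI 5 were higher and 6 lower. Erythroid and megakaryocyte markers took 0.168% to 0.236% in KI_Chd7del, 0.361% to 0.506% in KI and 0.216% to 0.265% in WT. The KI libraries were above all others in this share, although 4 of these 13 markers were higher and 6 lower in KI than in WT. Early granule markers took 0.723% to 1.01% in KI_Chd7del, 0.408% to 0.572% in KI and 0.855% to 1.00% in WT. B and T cell markers took 0.0248% to 0.0466% in KI_Chd7del, 0.0152% to 0.024% in KI and 0.0139% to 0.0172% in WT. Of these 12 markers 2 were higher and 1 lower in KI than in WT, and 6 were higher and 2 lower in KI_Chd7del than in KI. Markers were counted at a limma adjusted p of 0.05. Over all genes 31.8% were higher and 27.2% lower in KI against WT. In KI_Chd7del against KI 17.5% of all genes were higher and 22.9% lower. Every marker of these lists was above 0 in each library, and their part in the results on p53 genes was not tested. In bulk libraries a lower value can mean fewer cells of a type or less RNA per cell, and these cannot be told apart.

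The level of p53 transcript differed little between groups. Trp53 (ENSMUSG00000059552, chromosome 11, 69580359 to 69591873, + strand, GRCm38) had 6778, 7595 and 7656 in KI_Chd7del, 7412, 6845 and 7636 in KI, and 6653, 6513 and 6007 in WT. Every fusion library with or without floxed Chd7 lay above every WT library. Trp53 rose 1.15-fold in KI_Chd7del against WT (log2 0.20, SE 0.07, limma adjusted p = 0.0365) and 1.14-fold in KI against WT (log2 0.19, SE 0.07, adjusted p = 0.036). The difference between KI_Chd7del and KI was 0.01 on the log2 scale (95% interval -0.15 to 0.16, adjusted p = 0.932). Each call against WT was lost in 9 of 23 alternative settings, over which the log2 change was 0.16 to 0.45 in KI_Chd7del and 0.10 to 0.42 in KI. In KI against WT these included leaving out KI library 1 or 3 or WT library 2 or 3 (adjusted p = 0.0627 to 0.129). In KI_Chd7del against WT they included leaving out KI_Chd7del library 2 or 3, KI library 1, or WT library 2 or 3 (adjusted p = 0.0526 to 0.132). A processed pseudogene, Trp53-ps, had a mean value of 1.89 beside these.

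No rise of the 2 inhibitors of p53 passed the test in any comparison. Mdm2 (ENSMUSG00000020184, chromosome 10, 117688875 to 117710758, - strand), both an inhibitor and a target of p53, had 2601, 2284 and 2441 in KI_Chd7del, 2671, 2810 and 2634 in KI, and 2708, 3115 and 3201 in WT. All KI_Chd7del libraries were lower than all KI and all WT libraries, whereas KI and WT overlapped. Mdm2 fell to 0.813 of WT in KI_Chd7del (log2 -0.30, SE 0.07, adjusted p = 0.00919). It differed by -0.15 in KI_Chd7del against KI (95% interval -0.32 to 0.02, adjusted p = 0.139) and by -0.15 in KI against WT (-0.32 to 0.02, adjusted p = 0.111). The fall against WT was lost under scaling by column totals, with the late neutrophil genes (-0.05, adjusted p = 0.519) or without them (-0.18, adjusted p = 0.0572). The difference between KI and WT passed without WT library 1 (-0.22, adjusted p = 0.0201) or with upper-quartile factors (-0.25, adjusted p = 0.0117).

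Mdm4 (ENSMUSG00000054387, chromosome 1, 132959484 to 133030561, - strand) had 5728, 4690 and 5235 in KI_Chd7del, 4659, 6690 and 5412 in KI, and 5124, 5413 and 5491 in WT. The 3 groups overlapped, and the widest spread was within KI, where the SD was 18.4% of the mean. Differences were -0.09 in KI_Chd7del against KI (95% interval -0.36 to 0.19), 0.05 in KI against WT (-0.23 to 0.32) and -0.04 in KI_Chd7del against WT (-0.31 to 0.24). None passed (adjusted p = 0.593 to 0.818). A processed pseudogene, Mdm4-ps, had a mean value of 41.8 beside these.

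**Figure D1:**
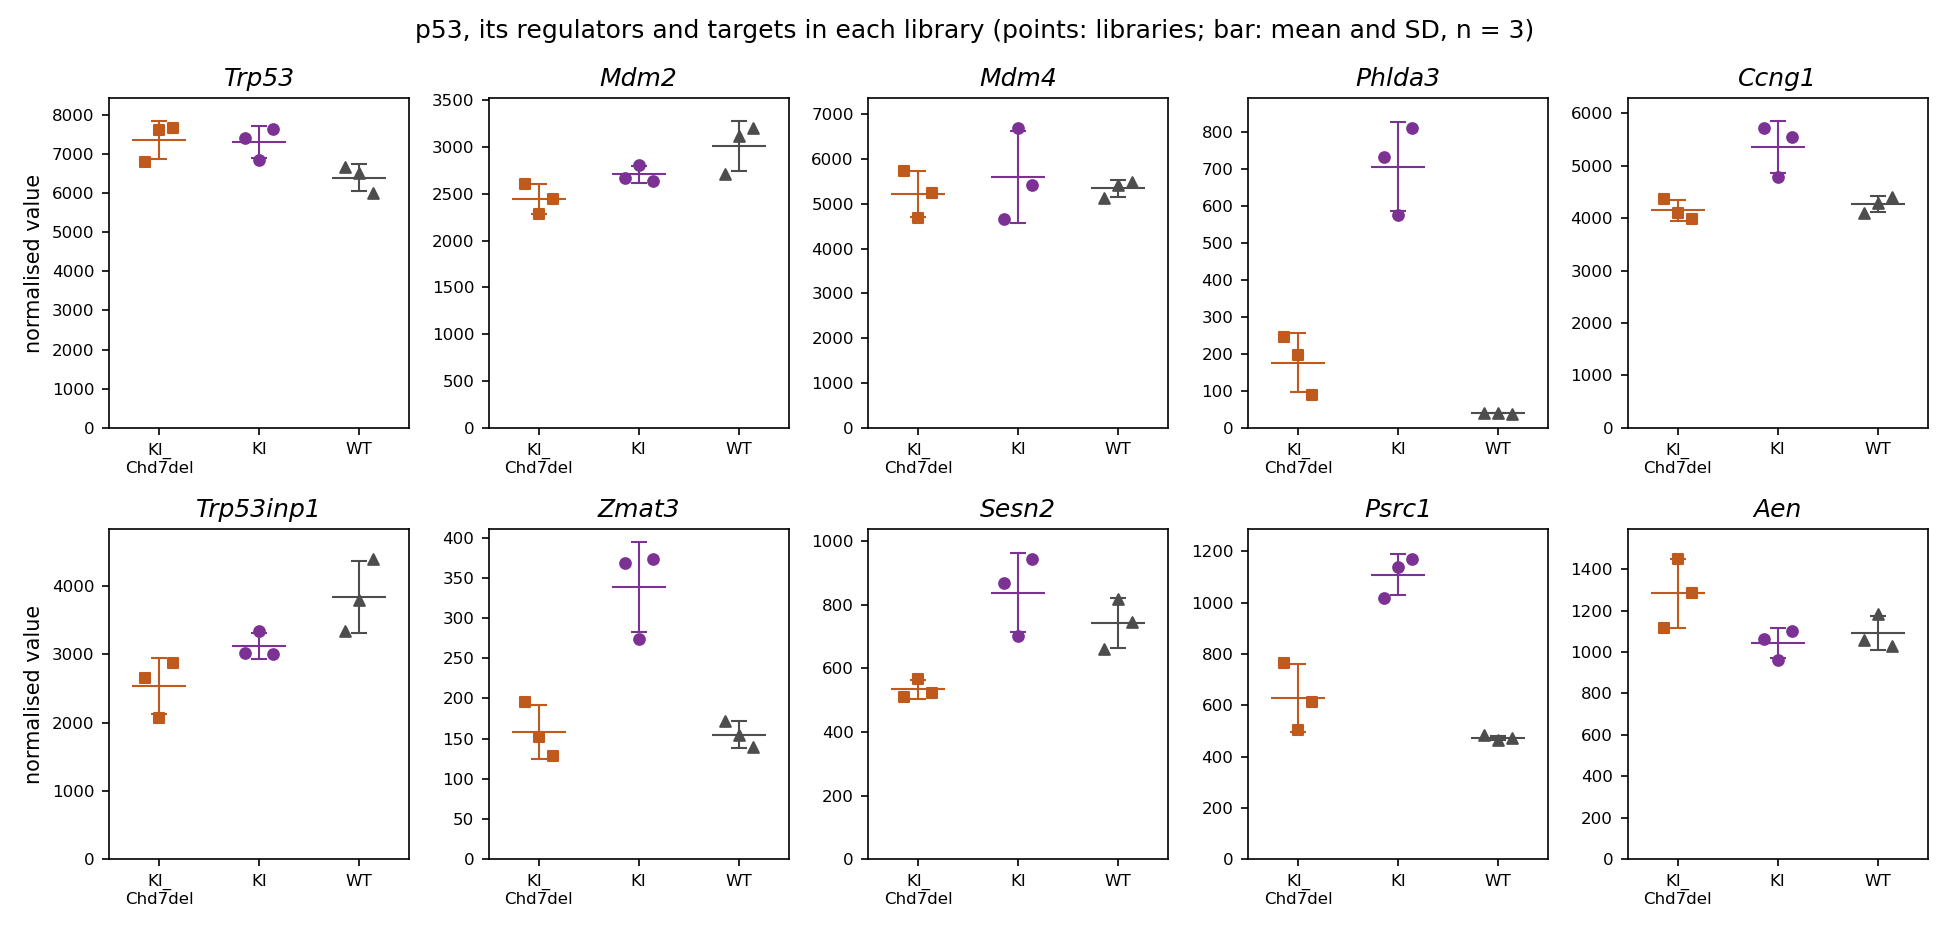
Normalised value (y axis, linear from 0) of each of the 10 genes in each library, by group on the x axis. Points are libraries and bars the mean and SD (n = 3). Phlda3 stood at 88 to 245 in KI_Chd7del, 576 to 812 in KI and 39 to 41 in WT, whereas the Mdm4 groups overlapped.

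Among the 10 genes the fusion groups differed from WT most in Phlda3, which encodes a small pleckstrin homology domain protein that opposes the kinase AKT. Phlda3 (ENSMUSG00000041801, chromosome 1, 135766119 to 135769136, + strand) had 245, 198 and 88 in KI_Chd7del, 734, 576 and 812 in KI, and 41, 41 and 39 in WT. The 3 groups did not overlap, and KI_Chd7del lay between KI and WT with an SD that was 45.5% of its mean. Phlda3 rose 17.0-fold in KI against WT (log2 4.08, SE 0.33, adjusted p = 8.33e-06). In KI_Chd7del it fell to 0.233 of KI (log2 -2.10, SE 0.33, adjusted p = 0.00142) and rose 3.95-fold against WT (log2 1.98, SE 0.33, adjusted p = 0.0011). The 3 Phlda3 calls held in each of the 23 alternative settings. Without KI_Chd7del library 3, the lowest of its group, the difference from KI was -1.66 and that from WT 2.42.

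Zmat3 and Psrc1 had lower folds and were also highest in KI. Zmat3 (ENSMUSG00000027663, chromosome 3, 32334792 to 32366014, - strand), an RNA-binding zinc finger protein that regulates splicing, had 195, 152 and 128 in KI_Chd7del, 368, 274 and 373 in KI, and 172, 154 and 139 in WT. Each KI library was above the libraries of the other groups, which overlapped each other. Zmat3 rose 2.16-fold in KI against WT (log2 1.11, SE 0.19, adjusted p = 0.000732) and fell to 0.467 of KI in KI_Chd7del (log2 -1.10, SE 0.19, adjusted p = 0.0021). KI_Chd7del and WT differed by 0.01 (95% interval -0.41 to 0.44, adjusted p = 0.956). Psrc1 (ENSMUSG00000068744, chromosome 3, 108383839 to 108388231, + strand), a microtubule-associated protein of the mitotic spindle, had 766, 504 and 612 in KI_Chd7del, 1017, 1139 and 1169 in KI, and 482, 465 and 473 in WT. The 3 groups did not overlap, in the order KI, KI_Chd7del and WT from high to low. Psrc1 rose 2.33-fold in KI against WT (log2 1.22, SE 0.13, adjusted p = 5.49e-05) and fell to 0.559 of KI in KI_Chd7del (log2 -0.84, SE 0.13, adjusted p = 0.00162). Against WT, Psrc1 in KI_Chd7del rose 1.31-fold (log2 0.38, SE 0.13, adjusted p = 0.0409), a call lost in 14 of 23 alternatives. Leaving out any library but KI_Chd7del library 2 ended it (adjusted p = 0.0502 to 0.101), and without KI_Chd7del library 1 the log2 difference was 0.23.

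Ccng1 and Sesn2 changed by less. Ccng1 (ENSMUSG00000020326, chromosome 11, 40748552 to 40755311, - strand), cyclin G1, which binds protein phosphatase 2A and acts on MDM2, had 4368, 4090 and 3982 in KI_Chd7del, 5717, 4785 and 5548 in KI, and 4100, 4283 and 4400 in WT. The KI libraries were above the other 6, which overlapped. Ccng1 rose 1.25-fold in KI against WT (log2 0.32, SE 0.07, adjusted p = 0.00372) and fell to 0.777 of KI in KI_Chd7del (log2 -0.36, SE 0.07, adjusted p = 0.00429). Over the alternatives the log2 change in KI against WT was 0.23 to 0.55. Between KI_Chd7del and WT it differed by -0.04 (95% interval -0.20 to 0.12, adjusted p = 0.677). After scaling by column totals that difference was 0.21 (adjusted p = 0.0281). Sesn2 (ENSMUSG00000028893, chromosome 4, 132492032 to 132510501, - strand), sestrin 2, a leucine sensor that restrains mTORC1, had 511, 567 and 524 in KI_Chd7del, 868, 701 and 943 in KI, and 661, 819 and 745 in WT. Here KI_Chd7del lay below both other groups, which overlapped. Sesn2 fell to 0.642 of KI in KI_Chd7del (log2 -0.64, SE 0.12, adjusted p = 0.00347) and to 0.722 of WT (log2 -0.47, SE 0.12, adjusted p = 0.0108). The fall against WT was lost when scaled to the column total (-0.22, adjusted p = 0.134). KI and WT differed by 0.17 (95% interval -0.10 to 0.44, adjusted p = 0.255), a difference that passed without KI library 2 (0.29, adjusted p = 0.0413) or by column totals (0.40, adjusted p = 0.0148).

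Trp53inp1 and Aen did not share the high KI values. Trp53inp1 (ENSMUSG00000028211, chromosome 4, 11156431 to 11174379, + strand), a stress-induced protein with roles in p53 phosphorylation and autophagy, had 2649, 2076 and 2878 in KI_Chd7del, 3022, 3344 and 3008 in KI, and 3346, 3800 and 4396 in WT. The groups did not overlap, and WT was the highest. Trp53inp1 fell to 0.657 of WT in KI_Chd7del (log2 -0.61, SE 0.13, adjusted p = 0.00442). The differences of -0.31 in KI_Chd7del against KI (95% interval -0.61 to -0.02, adjusted p = 0.0832) and of -0.29 in KI against WT (adjusted p = 0.0805) did not pass. The first passed without KI_Chd7del library 3 (adjusted p = 0.0466) and the second without KI_Chd7del library 2 (0.0333) or WT library 1 (0.0398), or with upper-quartile factors (0.0223). The fall in KI_Chd7del against WT was -0.70 to -0.36 over the alternatives. Aen (ENSMUSG00000030609, chromosome 7, 78895854 to 78911209, + strand), an apoptosis-enhancing nuclease, had 1116, 1448 and 1284 in KI_Chd7del, 1064, 961 and 1100 in KI, and 1056, 1185 and 1031 in WT. KI and WT overlapped, and KI_Chd7del was above KI. Aen rose 1.23-fold in KI_Chd7del against KI (log2 0.29, SE 0.10, adjusted p = 0.0464), a call lost in 12 of 23 alternatives. Leaving out any library but KI_Chd7del library 1 ended it (adjusted p = 0.0516 to 0.146). Aen differed by 0.23 between KI_Chd7del and WT (adjusted p = 0.0943, or 0.0203 without KI_Chd7del library 1 and 0.00427 by column totals) and by -0.07 between KI and WT (95% interval -0.30 to 0.17, adjusted p = 0.602).

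Counted over the 10 genes, 5 were higher and 0 lower in KI than in WT with limma at an adjusted p of 0.05. The higher genes were Trp53, Phlda3, Ccng1, Zmat3 and Psrc1. Over all 15997 genes tested, 58.9% passed, 31.8% higher and 27.2% lower, so the number that passed was close to what the whole table showed. At an unadjusted p of 0.05, and by limma-voom, 0 of the 10 were lower too. By column totals 74.2% of all calls were higher in KI, against 53.9% as deposited. With upper-quartile factors 4 of the 10 were higher and 2 lower, where 45% of all calls were higher. The libraries of KI and WT did not overlap in 6 of the 10, 5 higher and 1 lower, whereas 67.6% of all genes did not overlap, 35.9% of all higher and 31.8% lower. The median log2 fold change was 0.18 for the 10 genes and 0.02 for all genes.

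In KI_Chd7del against KI, 1 of the 10 genes was higher (Aen) and 5 were lower (Phlda3, Ccng1, Zmat3, Sesn2 and Psrc1). Over all genes 40.4% passed, 17.5% higher and 22.9% lower. The share of all calls that were higher was 43.4%, and 53.6% to 56.9% under 3 other scalings. The libraries did not overlap in 8 of the 10, with 7 of them lower in KI_Chd7del and 1 higher, whereas 52% of all genes did not overlap, 28.2% of all lower and 23.8% higher. The median log2 fold change was -0.34 for the 10 genes and -0.01 for all genes. In KI_Chd7del against WT, 3 were higher (Trp53, Phlda3 and Psrc1) and 3 lower (Mdm2, Trp53inp1 and Sesn2). Over all genes 48.4% passed, 24% higher and 24.3% lower. The libraries did not overlap in 6 of the 10, 3 in each direction, whereas 57.6% of all genes did not overlap, 28.9% of all higher and 28.8% lower. The medians were -0.01 for the 10 genes and 0.02 for all. Scaled to the column total, 5 of the 10 were higher and 1 lower in KI_Chd7del than in WT, or 4 and 2 with the late neutrophil genes left out of the total, and 78.7% and 65.3% of all calls were higher, against 49.7% as deposited. The 3 comparisons share libraries and are not independent of each other. Among the KI libraries, library 2 was the lowest for 6 of the 10 genes, and it had the highest share of late neutrophil markers (2.94%) and the lowest share of mast cell, basophil and eosinophil markers (0.275%) in KI. The part of that library's makeup in these values was not tested.

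**Figure D2:**
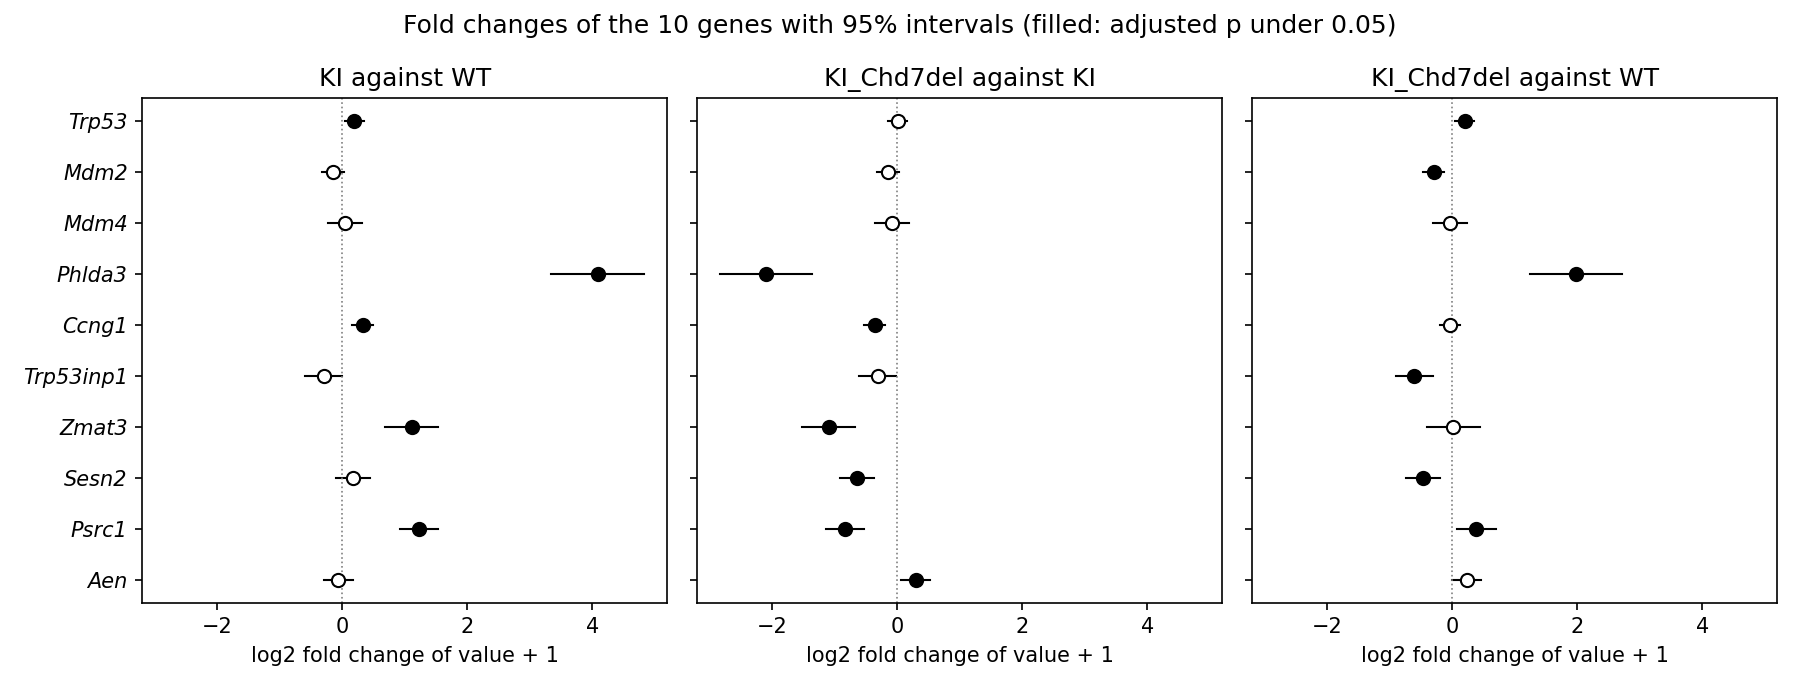
Log2 fold change of value + 1 (x axis) of the 10 genes in each comparison, with 95% intervals from the limma fit and filled points for an adjusted p under 0.05. Phlda3 lay farthest from 0 in each panel, at 4.08, -2.10 and 1.98, and Mdm4 was an open point in each.

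Per kilobase of annotated exon, p53 transcript was the most abundant of the 10 and Zmat3 the least in each group. Trp53 averaged 1820 ± 121 normalised values per kb in KI_Chd7del, 1800 ± 101 in KI and 1580 ± 84 in WT (SD, n = 3 each). Ccng1 followed in each group with 1180, 1520 and 1210 per kb in KI_Chd7del, KI and WT. Mdm2 (480, 532 and 592), Trp53inp1 (391, 483 and 594) and Mdm4 (353, 378 and 361) came next in KI_Chd7del and in WT, where the per-kb ranges of Trp53inp1 and its neighbour overlapped. Phlda3 was the ninth of the 10 in KI_Chd7del, at 114 ± 51.7 per kb, and in WT, at 25.9 ± 0.741. In KI it was the fifth, at 454 ± 77.1, with a range that overlapped those of Trp53inp1 and Mdm4, and Mdm4 overlapped Psrc1 there. Sesn2, Aen and Psrc1 lay between 141 and 329 per kb in all groups, and ranges overlapped between Aen and Psrc1 and between Psrc1 and Sesn2 and between Sesn2 and Phlda3 in KI_Chd7del and between Sesn2 and Aen in WT. Zmat3 averaged 13.8, 29.6 and 13.6 per kb in KI_Chd7del, KI and WT. Exon length was taken over all annotated transcripts, and which exons were used was not measured. A gene whose long annotated exons are seldom used would come out low. Mdm4 (14.8 kb) and Zmat3 (11.4 kb) had the longest annotated exon length of the 10 genes.

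**Figure D3:**
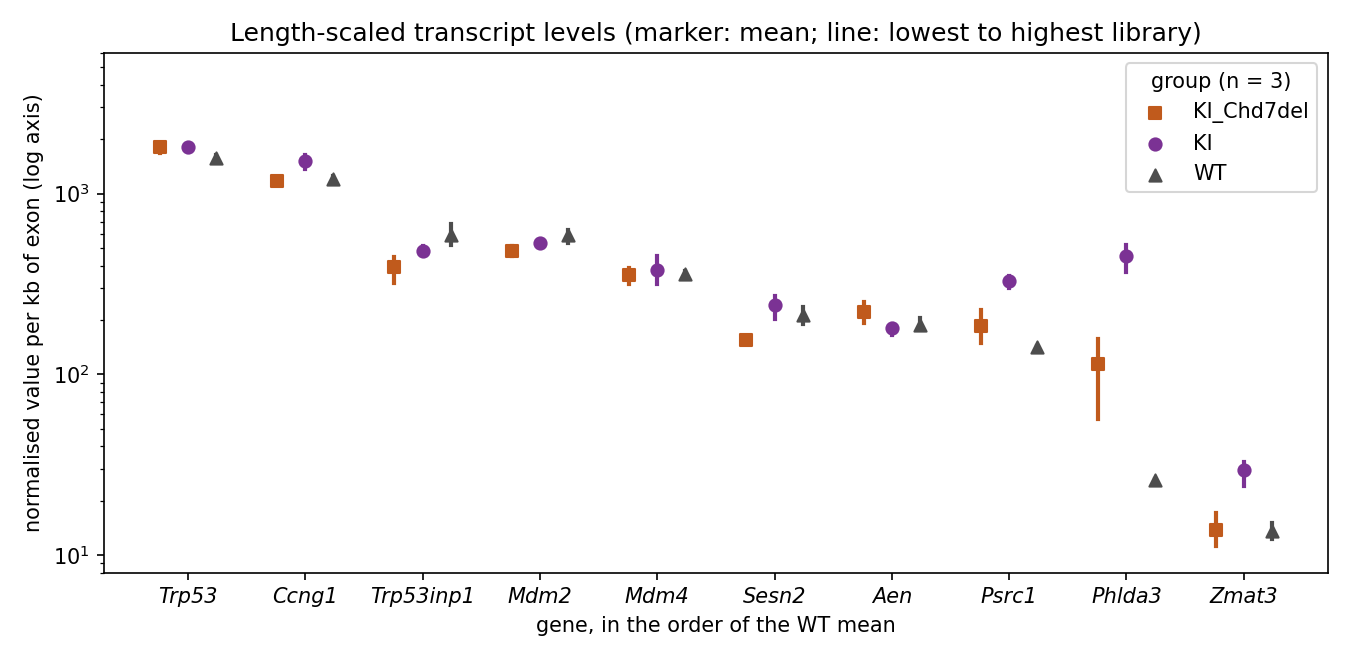
Normalised value per kb of annotated exon (y axis, log scale) for the 10 genes, ordered by their WT mean. Markers are means and lines run from the lowest to the highest of 3 libraries. Phlda3 averaged 114 in KI_Chd7del, 454 in KI and 25.9 in WT, and Trp53 was the highest of the genes in each group.

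Other known p53 targets were called in both directions, as genes of the whole table were. Of 38 listed, 36 passed the filter, and 13 rose and 13 fell in KI against WT (median log2 0.17), where 31.8% of all genes rose and 27.2% fell, while 5 rose and 12 fell in KI_Chd7del against KI (median -0.14), where 17.5% of all genes rose and 22.9% fell. In KI_Chd7del against WT 11 rose and 15 fell (median -0.14), where 24% of all genes rose and 24.3% fell. Scaled to the column total, 15 rose and 6 fell in KI_Chd7del and 20 rose and 9 fell in KI against WT, where 78.7% and 74.2% of all calls were higher. With the late neutrophil genes left out of the total 14 rose and 11 fell in KI_Chd7del against WT, where 65.3% of all calls were higher. Cdkn1a, the cell cycle inhibitor p21, had 397, 369 and 414 in KI_Chd7del, 1239, 905 and 1483 in KI, and 281, 228 and 223 in WT. The 3 groups did not overlap, and Cdkn1a rose in KI by 2.28 relative to WT (SE 0.17, adjusted p = 5.67e-06) and fell by 1.59 in KI_Chd7del relative to KI (SE 0.17, adjusted p = 0.00022). Against WT Cdkn1a was still higher in KI_Chd7del, by 0.69 (SE 0.17, adjusted p = 0.00868). Bbc3, the BH3-only protein PUMA, had 192, 196 and 176 in KI_Chd7del, 474, 326 and 635 in KI, and 78, 78 and 92 in WT. It rose in KI by 2.47 relative to WT (SE 0.22, adjusted p = 1.36e-05) and fell by 1.29 in KI_Chd7del relative to KI (SE 0.22, adjusted p = 0.00194). Against WT Bbc3 was higher in KI_Chd7del by 1.18 (SE 0.22, adjusted p = 0.00191). Bax, the pore-forming effector of apoptosis, rose by 0.64 in KI against WT (adjusted p = 1.65e-05) and fell by 0.55 in KI_Chd7del against KI (adjusted p = 0.000187). Sulf2, an extracellular sulfatase, rose by 3.46 and fell by 1.88 in the same comparisons, and Sesn1, sestrin 1, rose by 1.20 and fell by 0.42.

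Several other apoptosis and repair targets were lower in KI than in WT. Fas, the death receptor, had 202, 177 and 237 in KI_Chd7del, 260, 326 and 253 in KI, and 372, 462 and 506 in WT. It fell by 1.12 in KI_Chd7del (adjusted p = 0.000536) and by 0.67 in KI (adjusted p = 0.00587) against WT. Pmaip1, the BH3-only protein NOXA, had 57, 143 and 143 in KI_Chd7del, 145, 114 and 124 in KI, and 218, 260 and 254 in WT. It fell by 1.20 in KI_Chd7del (adjusted p = 0.0128) and by 0.93 in KI (adjusted p = 0.0314), and the KI call was lost without KI library 2 or 3 or any 1 WT library (adjusted p = 0.0518 to 0.0844) and by column totals (adjusted p = 0.0818). Without KI_Chd7del library 1, at 57, Pmaip1 fell by 0.76 in KI_Chd7del (adjusted p = 0.00388). Gadd45a, a growth arrest and DNA damage protein, fell by 1.29 in KI against WT (adjusted p = 0.000562). In KI_Chd7del it rose by 0.59 against KI (adjusted p = 0.0484), a call lost in 10 of 23 alternatives. Against WT it fell by 0.70 in KI_Chd7del (adjusted p = 0.0202), a call lost in 5 of 23. Xpc, a sensor of nucleotide excision repair, fell by 1.29 in KI against WT (adjusted p = 1.16e-06) and rose by 0.95 in KI_Chd7del against KI (adjusted p = 4.63e-05). Cd82, a tetraspanin, Tob1, an antiproliferative protein, and Dram1, an autophagy regulator, fell by 1.94, 1.41 and 1.23 in KI. In KI_Chd7del against KI, Cd82 rose by 0.62 (adjusted p = 0.00201), whereas Tob1 and Dram1 differed by 0.11 and 0.16 and did not pass. The Dram1 difference passed without KI library 2 (0.26, adjusted p = 0.0199), with upper-quartile factors (0.24, adjusted p = 0.0475) and with quantile normalisation (0.25, adjusted p = 0.0435). Ppm1d, the phosphatase WIP1 that turns p53 signalling off, differed by -0.10 in KI against WT and by -0.07 in KI_Chd7del against KI and passed in neither.

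**Figure D4:**
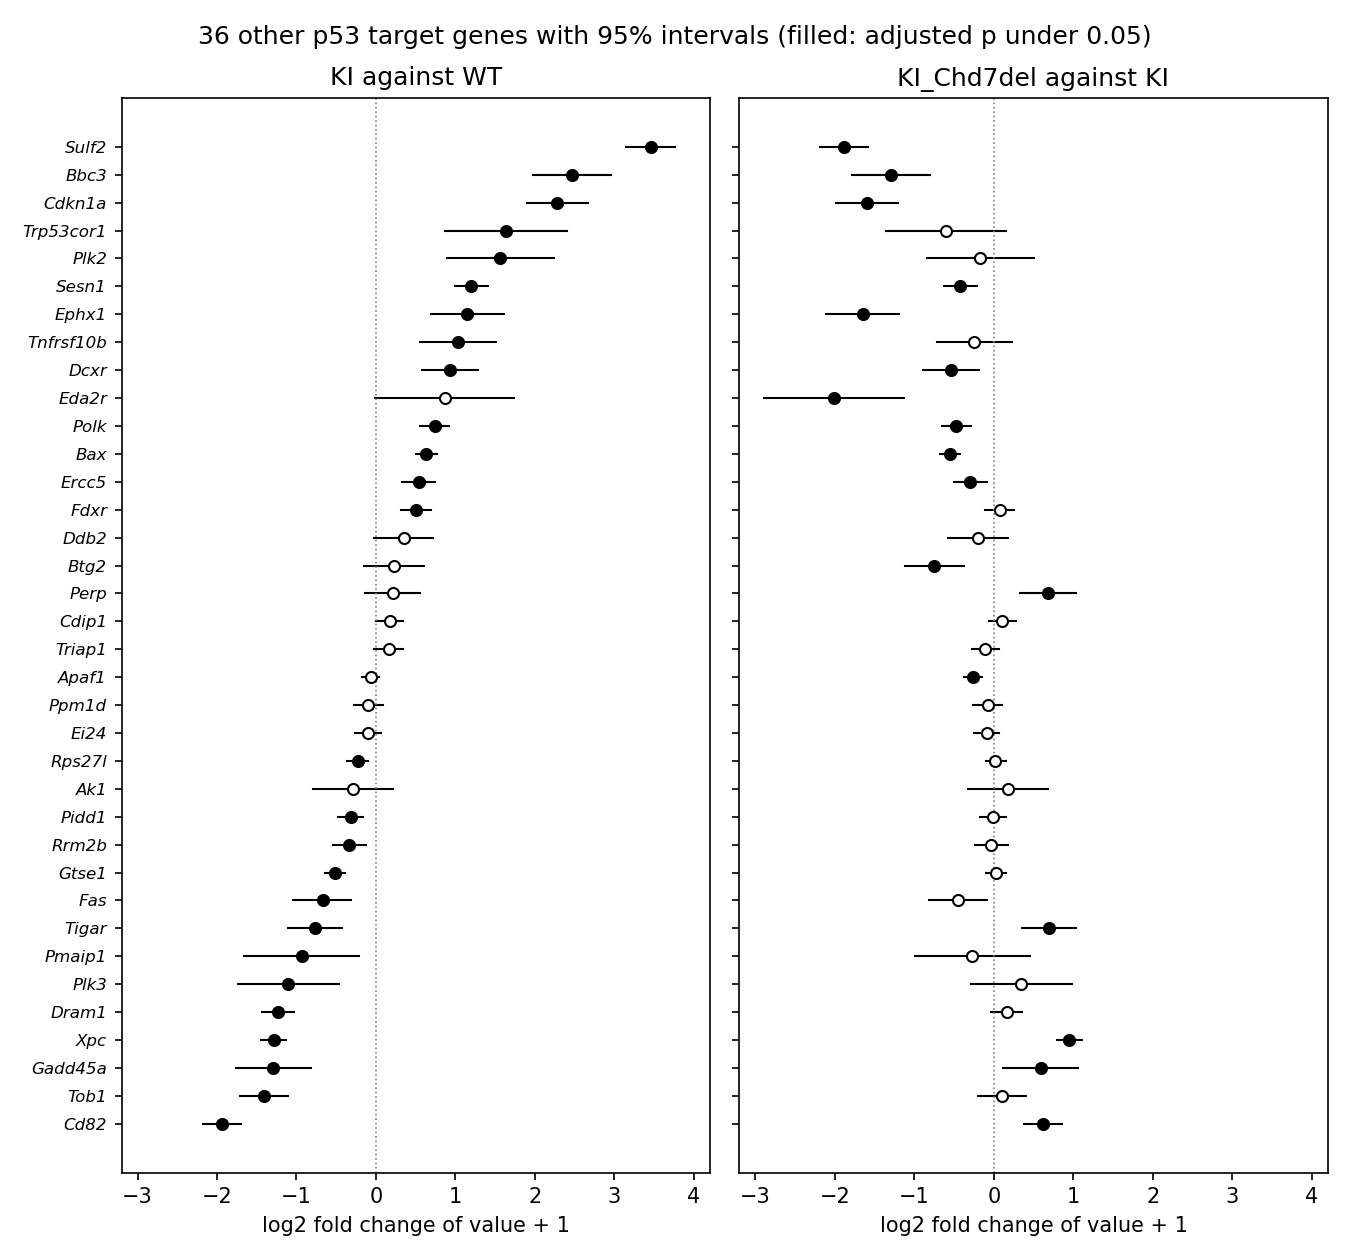
Log2 fold change of value + 1 (x axis) of 36 other p53 target genes, ordered by KI against WT, with 95% intervals and filled points for an adjusted p under 0.05. In KI against WT they ran from 3.46 for Sulf2 to -1.94 for Cd82, and Cdkn1a and Bbc3 lay left of 0 in KI_Chd7del against KI, at -1.59 and -1.29.

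Among 35 further regulators of p53, 14 rose and 9 fell in KI against WT (median log2 0.01), 8 rose and 7 fell in KI_Chd7del against KI (median -0.04), and 16 rose and 9 fell in KI_Chd7del against WT (median 0.17). Over all genes the shares that rose and fell were 31.8% and 27.2%, 17.5% and 22.9%, and 24% and 24.3% in these comparisons. With column-total scaling 23 rose and 0 fell in KI_Chd7del and 17 rose and 4 fell in KI against WT. Under that scaling 78.7% and 74.2% of all calls over the whole table were higher in these comparisons. The split was 20 and 7 in KI_Chd7del against WT without the late neutrophil genes in the total, where 65.3% of all calls were higher. It was 13 and 13 in KI against WT with upper-quartile factors, where 45% of all calls were higher. In KI_Chd7del against KI it was 11 and 6 with either of these scalings. There 53.6% of all calls were higher without the late neutrophil genes and 56.3% with upper-quartile factors. Atm, the kinase of the double-strand break response, had 2197, 2629 and 2382 in KI_Chd7del, 2256, 2467 and 2316 in KI, and 1158, 1077 and 1197 in WT. It rose by 1.07 in KI_Chd7del (SE 0.07, adjusted p = 1.39e-05) and by 1.04 in KI (SE 0.07, adjusted p = 4.74e-06) against WT. Atr, the kinase of replication stress, rose by 0.40 in KI_Chd7del and 0.68 in KI, and Trp53bp1, a double-strand break mediator, by 0.70 and 0.67. Huwe1, a ubiquitin ligase with p53 among its substrates, rose by 0.86 in KI_Chd7del and 0.96 in KI. Adjusted p-values of these genes against WT were 6.21e-06 to 0.000298. Atr was lower in KI_Chd7del than in KI (log2 -0.29, adjusted p = 0.00284), whereas Atm, Trp53bp1 and Huwe1 did not pass in that comparison. Hipk2, a kinase that phosphorylates p53, rose in KI by 2.08 relative to WT (SE 0.13, adjusted p = 2.46e-06) and fell by 1.40 in KI_Chd7del relative to KI (SE 0.13, adjusted p = 0.00013). Against WT Hipk2 was higher in KI_Chd7del by 0.68 (SE 0.13, adjusted p = 0.00268). Setd7, a methyltransferase, rose by 0.77 in KI against WT and fell by 0.31 in KI_Chd7del against KI. Chek1, the checkpoint kinase downstream of ATR, fell by 0.58 in KI against WT and rose by 0.48 in KI_Chd7del against KI. Banp, a nuclear matrix protein, rose by 0.77 in KI_Chd7del against KI (adjusted p = 0.000518).

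Hdac8, a deacetylase that the CBFB-MYH11 fusion protein is known to bind and that acts on p53, had 689, 637 and 703 in KI_Chd7del, 562, 517 and 501 in KI, and 561, 519 and 546 in WT. KI and WT overlapped (difference -0.04, 95% interval -0.22 to 0.13). This difference passed with quantile normalisation (-0.23, adjusted p = 0.0215) and was positive without passing by column totals (0.19, adjusted p = 0.079). Hdac8 rose in KI_Chd7del by 0.36 against KI (SE 0.08, adjusted p = 0.00598) and by 0.32 against WT (adjusted p = 0.00771). Cdkn2a, which encodes the CDK inhibitor p16 and the MDM2 inhibitor ARF from overlapping reading frames, had 7, 4 and 7 in KI_Chd7del, 42, 30 and 35 in KI, and 2, 2 and 1 in WT. All of these are low values with wide counting error, and the table does not separate the products. Only its KI libraries reached the filter value of 10, so it was fitted only through the group where it is high. Its changes are therefore given as sizes and not as tests. On the log2(value + 1) scale Cdkn2a rose in KI by 3.79 relative to WT (SE 0.32) and fell by 2.41 in KI_Chd7del relative to KI (SE 0.32). With a pseudocount of 16 these changes were 1.54 and -1.23.

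Of 14 listed relatives of the 10 genes in their protein families, 11 passed the filter. Of these, 2 rose and 7 fell in KI_Chd7del against WT (median log2 -0.28), where 24% of all genes rose and 24.3% fell. In KI against WT 2 rose and 6 fell (median -0.37), where 31.8% of all genes rose and 27.2% fell. Under column-total scaling 3 rose and 4 fell in KI_Chd7del and 3 rose and 5 fell in KI. Of all calls 78.7% and 74.2% were higher in these comparisons under that scaling. Trp53inp2, a regulator of autophagy, had 1753, 1213 and 1561 in KI_Chd7del, 813, 1172 and 533 in KI, and 5000, 5860 and 5361 in WT. It fell by 1.85 in KI_Chd7del (SE 0.25, adjusted p = 0.000353) and by 2.76 in KI (SE 0.25, adjusted p = 1.66e-05) against WT. Zmat1 and Zmat5 fell by 0.63 and 0.49 in KI against WT. Sesn3, a sestrin known as a FOXO target, rose by 1.25 in KI_Chd7del and by 0.87 in KI against WT. The p53 paralogues were at or near 0, with Trp63 at 0 to 2 and Trp73 at 0 to 7 over the 9 libraries. In KI_Chd7del against KI 4 relatives rose and 2 fell, where 17.5% of all genes rose and 22.9% fell. With quantile normalisation 5 relatives rose and 1 fell, where 56.9% of all calls were higher. The number that passed in this comparison was 2 to 6 over the alternatives. It was 2 when KI_Chd7del library 3 was left out and 3 without KI_Chd7del library 2, KI library 1 or 3, or any 1 WT library.

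Of 25 cell cycle genes known to fall when p53 acts through p21 and the DREAM complex, 0 rose and 23 fell in KI_Chd7del against WT, and 0 rose and 22 fell in KI against WT (median log2 -0.41 in both comparisons). Over all genes 24% rose and 24.3% fell in KI_Chd7del against WT, and 31.8% rose and 27.2% fell in KI against WT, with a median of 0.02 in both. In KI_Chd7del against KI 3 rose and 3 fell (median -0.06), or 5 and 1 with quantile normalisation. Over all genes 17.5% rose and 22.9% fell in that comparison as deposited, with a median of -0.01. With quantile normalisation 56.9% of all calls were higher there. By limma-voom 0 also rose in either comparison with WT, as at an unadjusted p of 0.05. After scaling by column totals 13 fell in KI_Chd7del and 12 in KI against WT, and 1 rose in each. Of all calls 78.7% and 74.2% were higher in these comparisons under that scaling.

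Genes with the profile most like that of Phlda3 over the 9 libraries were Runx1t1, Ddc and Unc5cl, with Pearson r of 0.998, 0.997 and 0.996 on the log2(value + 1) scale. Runx1t1, which encodes the corepressor ETO, had 225, 117 and 18 in KI_Chd7del, 2048, 1307 and 2429 in KI, and 5, 5 and 6 in WT. It shared with Phlda3 the low value of KI_Chd7del library 3 and of KI library 2. Those most like Mdm2 were Skil, Tmem71 and D17H6S53E (r = 0.986, 0.985 and 0.968). Those most like Trp53 were Msto1, Prps1l3 and Isoc2a (r = 0.965, 0.959 and 0.954). After group means were taken off, r was 0.989, 0.953 and 0.957 for the genes like Phlda3. It was then 0.953, 0.956 and 0.887 for those like Mdm2 and 0.932, 0.894 and 0.932 for those like Trp53. Each gene was picked for the highest r over all libraries among 11383 genes, so neither r is a test, and both are a description of these libraries.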

How the data were processed

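RNA from 9 libraries was sequenced, and the submitters' processing notes name CASAVA 1.8.2, STAR 2.4, RSEM and DESeq2 with the build GRCm38, with no role given. The deposited table holds a score per gene and library: gaps and doublings among low values show read numbers that the authors divided by a factor per library and rounded. Raw counts were not used, so depth is known only on that scale, and no count model was run. The strand setting is not given in the sources used here. Symbols and exon lengths came from GENCODE M21 and promoters from RefSeq.

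The 15997 genes that reached 10 in 3 or more libraries were fitted on log2(value + 1) with limma 3.58.1 in R 4.3.3, with a mean-variance trend, over all 9 libraries in 3 groups, with Benjamini-Hochberg adjustment over all genes at 0.05. The pseudocount of 1 understates changes of low genes. The fit was tested on simulated data. The 10 genes and all lists were chosen with earlier results of these data known. Besides the 10, named genes are 10 set by name, up to 4 of each list with the smallest adjusted p per comparison, and the 3 most like Trp53, Mdm2 and Phlda3. Between libraries of a group the median squared difference was 3.57 to 12.6 times that of counting noise, so each was counted as a library of its own, which does not show that they came from separate mice. In all 23 alternatives were run.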

Additional observations from a re-analysis of the deposited data

How the results depend on the processing

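Over 23 alternatives the number of the 10 genes that passed was 4 to 7 in KI against WT, 5 to 6 in KI_Chd7del against KI and 4 to 6 in KI_Chd7del against WT. Over all genes it was 8253 to 9847, 4779 to 6858 and 6338 to 8896. The calls of Phlda3 in each comparison, of Ccng1, Zmat3 and Psrc1 in KI against WT and KI_Chd7del against KI, of Sesn2 in KI_Chd7del against KI and of Trp53inp1 in KI_Chd7del against WT held in all of them. Column-total scaling moved the median of all genes to 0.264 in KI_Chd7del and 0.246 in KI against WT, and the share of calls that were higher to 78.7% and 74.2%, against 49.7% and 53.9% as deposited. In KI_Chd7del against KI that share was 43.4% as deposited, 56.3% with upper-quartile factors, 56.9% with quantile normalisation and 53.6% by column totals that omit the late neutrophil genes. Without those genes it was 65.3% in KI_Chd7del against WT. Same-numbered libraries of different groups deviated from their group means with r between -0.153 and 0.109, and differently numbered ones with r between -0.167 and 0.208. No pairing by number was seen, and with 3 libraries per group these r cannot exclude a shared batch. With the replicate block 4, 5 and 4 of the 10 genes and 9121, 5952 and 7411 of all genes passed in KI against WT, KI_Chd7del against KI and KI_Chd7del against WT. Among the 10 genes the block ended the calls of Trp53 in KI against WT (adjusted p = 0.0679) and in KI_Chd7del against WT (adjusted p = 0.0695), of Aen in KI_Chd7del against KI (adjusted p = 0.065) and of Psrc1 in KI_Chd7del against WT (adjusted p = 0.0582), and 3 relatives passed in KI_Chd7del against KI, against 6 without it. The differences whose sign turned had not passed in the fit reported, and the cause was not tested. After scaling by column totals, KI against WT was 0.0797 for Mdm2, 0.164 for Aen, 0.187 for Hdac8, 0.133 for Ppm1d and 0.0697 for Banp, and KI_Chd7del against WT was 0.209 for Mdm4, 0.207 for Ccng1, 0.0784 for Ppm1d and 0.153 for Chek1. Without the late neutrophil genes in the total, KI against WT was 0.0133 for Hdac8, and KI_Chd7del against WT was 0.0762 for Mdm4, 0.0748 for Ccng1 and 0.0206 for Chek1. With quantile normalisation, KI_Chd7del against KI was 0.0149 for Mdm4 and 0.0059 for Ppm1d, and KI_Chd7del against WT was 0.0924 for Mdm4, 0.0679 for Ccng1, -0.218 for Zmat3 and -0.137 for Zmat1. With upper-quartile factors, KI against WT was -0.0467 for Mdm4, and KI_Chd7del against KI was 0.0026 for Ppm1d, and KI_Chd7del against WT was -0.0063 for Zmat3. With 1 library left out, KI against WT was -0.0888 to 0.172 for Mdm4, KI_Chd7del against KI was -0.0372 to 0.0649 for Trp53, -0.21 to 0.0505 for Mdm4, -0.486 to 0.17 for Pmaip1, -0.0355 to 0.0939 for Atm, -0.159 to 0.0136 for Ppm1d, -0.0081 to 0.205 for Tob1 and -0.0166 to 0.122 for Trp53bp1, and KI_Chd7del against WT was -0.108 to 0.0362 for Mdm4, -0.146 to 0.156 for Zmat3 and -0.0429 to 0.14 for Zmat1. The r of Tmem71 and D17H6S53E with Mdm2 was as low as 0.70 and 0.73 over 17 alternatives. Depth limits the low values, such as Cdkn2a.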
